A study of Mus musculus with 2 samples.

Results

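A set of 10 genes that mark meningeal fibroblasts was followed in RNA from the cerebellum of mice at postnatal day 3. The genes were Ptgds, Slc6a13, Aldh1a2, Foxc1, Foxc2, Dcn, Lum, Ogn, Islr and Fbln1. They were taken from the count table by gene symbol, and all 10 of 10 were among its 22423 genes. Ratios of the knockout library to the control library ran from 1.08-fold to 1.44-fold over the 10 genes, and 9 of the 10 had a 95% counting interval above 1, against 17.0% of all genes tested. Foxc2 was not distinguishable from no difference, the intervals of Lum and Fbln1 included no difference under some other scalings of the libraries, and none of the 10 reached 2-fold, which 1.21% of all genes tested did on the higher side. Among genes of 500 or more reads, 25.4% had an interval above 1 and 0.0197% were past 2-fold higher.

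The study set a conditional Prdm16 knockout (genotype Prdm16cKO, called cKO) against Prdm16fl/fl mice (called Ctrl), which carry the floxed alleles. Both were C57BL/6 mice of postnatal day 3, and the tissue was dissected cerebellum. The labels name no Cre driver and no recombined cell type, so they do not say whether meningeal cells had lost Prdm16. The series' design text speaks of triplicates, whereas the table has a single count column for each genotype. A column is taken here as 1 library, and no difference below has a replicate check.

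Meningeal fibroblasts form the pia, arachnoid and dura, the connective tissue layers that wrap the brain. The innermost layer lies directly on the cerebellar surface, next to the external granule layer in which granule neuron progenitors divide. These cells lay down the basement membrane at the brain surface and secrete factors such as the chemokine Cxcl12, bone morphogenetic proteins and retinoic acid. In mice, loss of Foxc1 disturbs the meninges and the cerebellum beneath them.

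The cKO library held 17501279 reads over genes and the Ctrl library 18600299. Prdm16 had 118 reads in cKO and 315 in Ctrl, a log2 ratio of -1.30 (-1.62 to -0.99). Log2 ratios are of cKO over Ctrl after library scaling with edgeR's TMM (trimmed mean of M values), with the 95% counting interval in parentheses. Such intervals cover counting error only, and they compare these 2 libraries, not the genotypes. Atoh1, which specifies cerebellar granule neuron progenitors, had 789 reads in cKO and 560 in Ctrl. Xist had 21 reads in cKO and 14779 in Ctrl, while the Y-linked Eif2s3y had 1195 reads in cKO and 0 in Ctrl, so the libraries differed in sex pattern as well as genotype and the contributions cannot be told apart.

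Promoter sequences were matched in RefSeq (GRCm38.p6) for 7 of the 10 genes, in 10 windows that run from 250 bases before to 50 after a transcript start. They are shown because the genes leaned the same way in these libraries and because their start regions differ widely in composition. Below is the part of 4 windows that lies before the start and outside annotated exons, read 5′ to 3′ on the gene's strand, with CAGCTG, an E-box that reads the same on both strands, in capitals. The Ptgds stretch lies at chr2:25469843-25469999 on the minus strand, the Ogn stretch at chr13:49607765-49608014 on the plus strand, the Islr stretch at chr9:58158555-58158804 on the minus strand and the Aldh1a2 stretch at chr9:71215539-71215788 on the plus strand. The Ptgds and Islr stretches lie inside their genes as bounded in GENCODE M21 (chr2:25466709-25470046 and chr9:58156268-58204306). They come before the RefSeq start used but after the start of a longer annotated transcript.
Ptgds: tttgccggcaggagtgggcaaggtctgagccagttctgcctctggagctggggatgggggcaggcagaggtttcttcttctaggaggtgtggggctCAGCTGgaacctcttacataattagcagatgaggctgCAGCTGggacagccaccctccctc
Ogn: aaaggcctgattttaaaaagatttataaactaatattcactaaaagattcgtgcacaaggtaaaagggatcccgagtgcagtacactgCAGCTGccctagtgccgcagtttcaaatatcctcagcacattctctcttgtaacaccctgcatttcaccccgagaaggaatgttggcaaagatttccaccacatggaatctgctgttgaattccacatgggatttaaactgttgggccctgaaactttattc
Islr: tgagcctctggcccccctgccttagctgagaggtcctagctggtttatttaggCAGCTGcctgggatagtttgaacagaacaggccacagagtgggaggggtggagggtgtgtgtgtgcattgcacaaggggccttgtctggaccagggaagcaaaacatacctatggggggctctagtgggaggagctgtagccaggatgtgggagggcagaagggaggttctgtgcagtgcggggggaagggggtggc
Aldh1a2: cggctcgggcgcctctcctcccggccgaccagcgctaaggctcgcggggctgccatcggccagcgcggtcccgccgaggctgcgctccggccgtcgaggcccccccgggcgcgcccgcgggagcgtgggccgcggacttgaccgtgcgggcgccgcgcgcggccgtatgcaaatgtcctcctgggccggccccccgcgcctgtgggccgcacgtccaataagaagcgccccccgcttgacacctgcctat

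The Aldh1a2 stretch had 77.6% G and C, against 42.0% in Ogn, 59.2% in Ptgds and 59.6% in Islr. CAGCTG stood in 6 of the 10 windows, which belong to 5 of the 7 genes (Ptgds, Slc6a13, Ogn, Islr and Fbln1), and in 16.3% of all 32851 windows. It was picked for display after 11 motifs had been searched on both strands, so its count is a description. The forkhead core GTAAACA and its shorter form TAAACA stood in 0 of the 10 windows, and in 3.65% and 13.4% of all windows. AGGTCA, the half-site of nuclear receptors, stood in 1 window (Slc6a13) against 16.3% of all. TATAAA stood in 1 (13.6% of all), ATAAATA in 1 (5.60%), CACGTG in 2 (7.15%), CATTCC in 2 (14.7%), CCAAT in 4 (37.4%), TGACTCA in 1 (5.20%) and GGGCGG in 3 (35.7%). TAAACA lies within GTAAACA, and windows of the same gene can overlap. The 2 windows with CACGTG both belong to Fbln1 and overlap over the site.

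Ptgds, which encodes the lipocalin-type enzyme that makes prostaglandin D2 and is secreted into cerebrospinal fluid, was by far the most abundant of the 10. It had 15315 reads in the cKO library and 11529 in the Ctrl library, which is 884 CPM (870.3 to 898) in cKO against 613 CPM (602 to 625) in Ctrl. CPM here is the read count scaled by the TMM library size, with an exact Poisson 95% interval. The cKO level was above the Ctrl level, with intervals far apart. The log2 ratio was 0.53 (0.49 to 0.56), a 1.44-fold higher level in cKO.

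Aldh1a2, the enzyme that makes retinoic acid from retinaldehyde in the meninges, had 1668 reads in cKO and 1375 in Ctrl. These are 96.3 CPM (91.7 to 101) in cKO and 73.2 CPM (69.3 to 77.1) in Ctrl, which do not overlap. The log2 ratio was 0.40 (0.29 to 0.50), or 1.32-fold higher. Slc6a13, a plasma membrane transporter of GABA and taurine that is typical of meninges, also had 1668 reads in cKO, against 1262 in Ctrl. Its level was 96.3 CPM (91.7 to 101) in cKO and 67.1 CPM (63.5 to 71.0) in Ctrl. It was again the cKO library that stood higher, by a log2 ratio of 0.52 (0.41 to 0.63) or 1.43-fold.

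The paralogous forkhead transcription factors Foxc1 and Foxc2, both needed for mesenchyme of the head, were the least abundant members per length. Foxc1 had 510 reads in cKO and 472 in Ctrl, or 29.4 CPM (26.9 to 32.1) in cKO and 25.1 CPM (22.9 to 27.5) in Ctrl. These intervals overlap, although that of the ratio, 0.23 (0.05 to 0.41), lies above 0. Foxc2 had 196 reads in cKO and 177 in Ctrl, or 11.3 CPM (9.79 to 13.0) in cKO and 9.42 CPM (8.08 to 10.9) in Ctrl. Its ratio of 0.27 (-0.04 to 0.57) was not distinguishable from 0 at this depth. Reads of both genes together gave a ratio of 0.24 (0.08 to 0.40). Foxc1 had 2.60 reads (2.203 to 3.08) per Foxc2 read in cKO and 2.67 (2.24 to 3.19) in Ctrl, so the balance between the paralogs was not distinguishable between the libraries.

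Dcn, Lum and Ogn are small leucine-rich proteoglycans, matrix proteins that bind collagen fibrils. Decorin, encoded by Dcn, had 2280 reads in cKO and 1838 in Ctrl, or 132 CPM (126 to 137) in cKO and 97.8 CPM (93.4 to 102) in Ctrl. The Dcn levels did not overlap, and the log2 ratio was 0.43 (0.34 to 0.52), 1.35-fold higher. Osteoglycin, encoded by Ogn, had 498 reads in cKO and 429 in Ctrl, or 28.8 CPM (26.3 to 31.4) in cKO and 22.8 CPM (20.7 to 25.1) in Ctrl. The ratio of Ogn was 0.33 (0.14 to 0.52). Lumican, encoded by Lum beside Dcn on chromosome 10, had 362 reads in cKO and 336 in Ctrl, or 20.9 CPM (18.8 to 23.2) in cKO and 17.9 CPM (16.0 to 19.9) in Ctrl. Its ratio of 0.23 (0.01 to 0.44) barely cleared 0. Dcn had 6.30 reads (5.63 to 7.06) per Lum read in cKO and 5.47 (4.87 to 6.16) in Ctrl, and these intervals overlap.

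Fibulin 1, encoded by Fbln1, is a glycoprotein of basement membranes and elastic fibres, and it differed least. It had 1567 reads in cKO and 1581 in Ctrl, or 90.5 CPM (86.1 to 95.1) in cKO and 84.1 CPM (80.0 to 88.4) in Ctrl. The log2 ratio was 0.11 (0.00 to 0.21), with 29.9% of the 10160 genes of 500 or more reads above it. Ptgds had 9.77 reads (9.28 to 10.3) per Fbln1 read in cKO and 7.29 (6.92 to 7.69) in Ctrl, a comparison within each library that needs no scaling between them. Dcn likewise had 1.46 reads (1.36 to 1.55) per Fbln1 read in cKO and 1.16 (1.09 to 1.24) in Ctrl. The members therefore differed unequally, beyond counting error, in these libraries.

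Islr encodes a secreted or membrane-bound immunoglobulin and leucine-rich repeat protein (meflin) of mesenchymal stromal cells. It had 2540 reads in cKO and 2154 in Ctrl, or 147 CPM (141 to 152) in cKO and 115 CPM (109.8 to 119.5) in Ctrl. The log2 ratio was 0.36 (0.27 to 0.44), and the levels did not overlap. Exons of Islr overlap those of its neighbour Islr2 on the same strand in the GENCODE M21 annotation. Islr2 is a neuronal gene of far higher level in this tissue, with 23791 reads in cKO, 19222 in Ctrl and a ratio of 0.43 (0.40 to 0.45). How reads in the shared part were assigned is not recorded in the labels, so the value of Islr is uncertain as a fibroblast measurement.

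**Figure D1:**
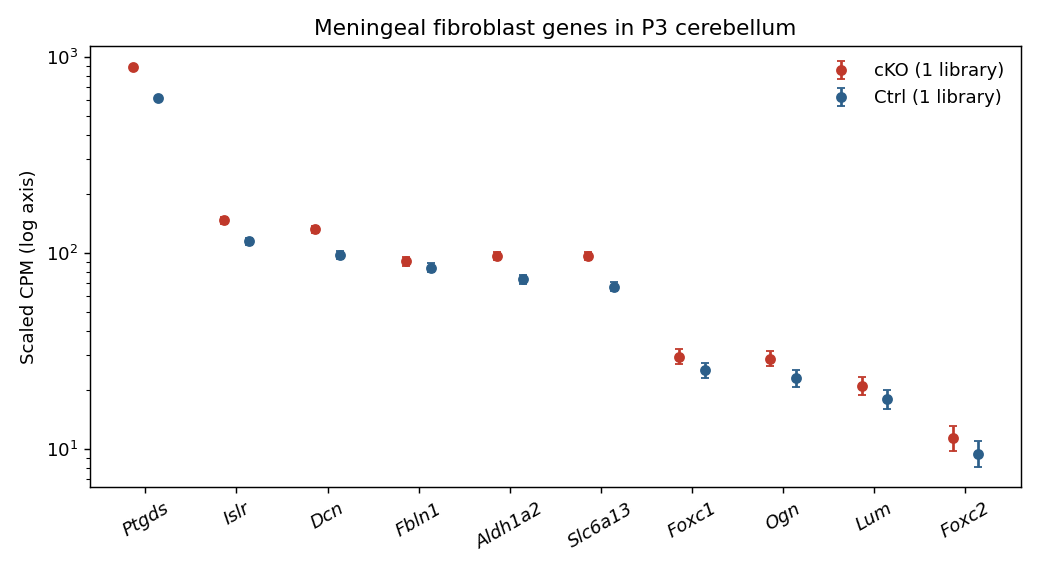
Scaled CPM (log axis) of the 10 meningeal fibroblast genes in the cKO library (red, left) and the Ctrl library (blue, right). Each point is 1 library and bars are exact Poisson 95% intervals. Ptgds, at 884 CPM in cKO and 613 CPM in Ctrl, stands far above the rest, and every gene lies higher in cKO.

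Levels between genes were compared as CPM per kilobase of exon (GENCODE M21, all isoforms merged). Ptgds led with 536 CPM per kb in cKO and 372 in Ctrl. Islr followed with 54.6 in cKO and 42.7 in Ctrl, then Aldh1a2 with 42.5 in cKO and 32.3 in Ctrl, and Slc6a13 with 33.2 in cKO and 23.1 in Ctrl. Dcn came next in cKO at 22.5 CPM per kb (21.6 to 23.5), just above Fbln1 at 20.7 (19.7 to 21.8), and these intervals overlap. In Ctrl the order of the pair was turned round, with Dcn at 16.8 (15.99 to 17.5) below Fbln1 at 19.3 (18.3 to 20.2). There the counting intervals do not overlap, but they carry no error of the exon length, 5.84 kb for Dcn and 4.37 kb for Fbln1. In CPM not divided by length, Dcn stood above Fbln1 in both libraries, at 132 against 90.5 in cKO and 97.8 against 84.1 in Ctrl. The turned order therefore rests on the lengths used. By CPM per kb, this was the only pair of the 10 whose order differed between the libraries.

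Lower down, Ogn stood at 11.2 CPM per kb (10.2 to 12.2) in cKO and 8.89 (8.07 to 9.78) in Ctrl. Lum stood at 8.54 (7.68 to 9.46) in cKO and 7.30 (6.54 to 8.13) in Ctrl, so this pair overlaps in Ctrl only. Foxc1 had 5.04 CPM per kb (4.61 to 5.496) in cKO and 4.30 (3.92 to 4.70) in Ctrl. Foxc2 had 4.15 (3.59 to 4.78) in cKO and 3.46 (2.97 to 4.004) in Ctrl, which overlaps Foxc1 in both libraries.

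As a group, 0 of the 10 genes were past 2-fold higher with an interval excluding 1, and 0 were past 2-fold lower. Over all 18787 genes of 10 or more reads, 1.21% were past that rule higher and 2.2% lower, and over the 10160 genes of 500 or more reads 0.0197% higher and 0.394% lower. Past 1.2-fold with an interval excluding 1, a threshold added after the values were seen, stood 6 of the 10 (Ptgds, Slc6a13, Dcn, Aldh1a2, Islr and Ogn), against 7.19% of all genes tested and 7.17% of those with 500 or more reads. All 10 ratios were above 0, against 51.3% of all genes tested and 54.3% of those with 500 or more reads. The 95% interval lay above 0 for 9 of the 10 and below 0 for 0. The same shares over all genes tested were 17.0% above and 15.5% below, and over genes of 500 or more reads they were 25.4% above and 20.0% below. With library totals or DESeq2's size factors in place of TMM, 7 of the 10 had intervals above 0 (against 13.7% and 14.7% of all genes tested), those of Lum, Fbln1 and Foxc2 spanning it, and all 10 ratios stayed above 0 under each of the 5 scalings run. The members' median log2 ratio was 0.34, against 0.01 for all genes tested and 0.02 for genes of 500 or more reads. The genes were picked as one cell type's markers with earlier results of these data known, and they share the 2 libraries, so their common direction is a description of this pair.

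**Figure D2:**
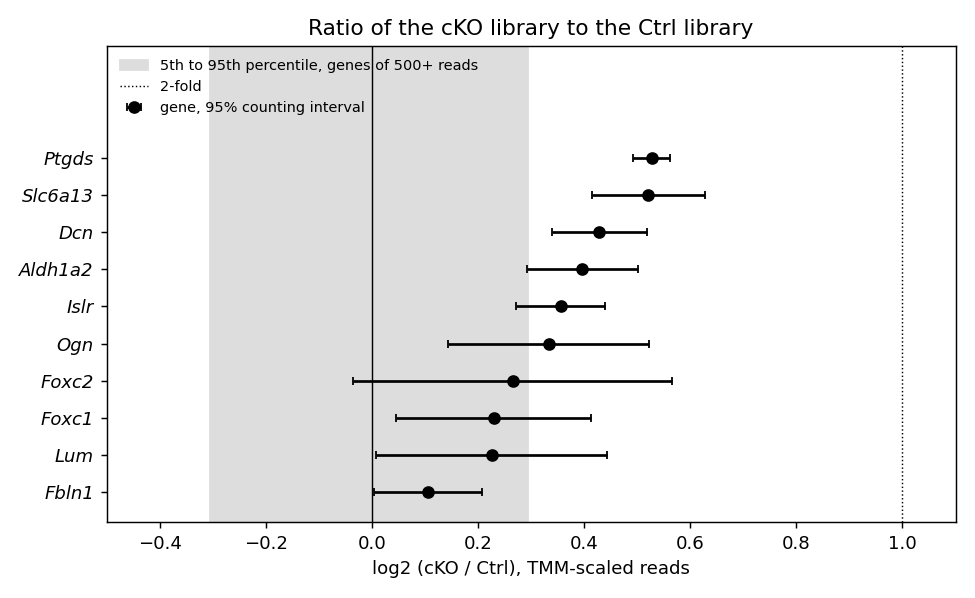
Log2 ratio of cKO over Ctrl for each gene, with its 95% counting interval. The grey band spans the 5th to 95th percentile (-0.31 to 0.29) of the 10160 genes with 500 or more reads, and the dotted line marks 2-fold. The points of 6 genes, Ogn and upward, lie to the right of the band, while Fbln1 at 0.11 sits well within it.

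Genes with few reads scatter widely, so each member was also placed among genes whose reads were within 1.5 times its own. Slc6a13 had a higher ratio than nearly all of 2924 such genes, with 0.205% above it. For Dcn 0.681% of 2203 genes were higher, for Ptgds 0.709% of 141 and for Aldh1a2 1.05% of 2855. Islr had 1.42% of 1970 above it and Ogn 4.53% of 3246. The other 4 lay further inside the scatter, with 11.4% higher for Foxc1, 12.7% for Lum, 13.0% for Foxc2 and 26.7% for Fbln1. These places are ranks within 1 pair of libraries, and the variation between animals is not known from them.

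**Figure D3:**
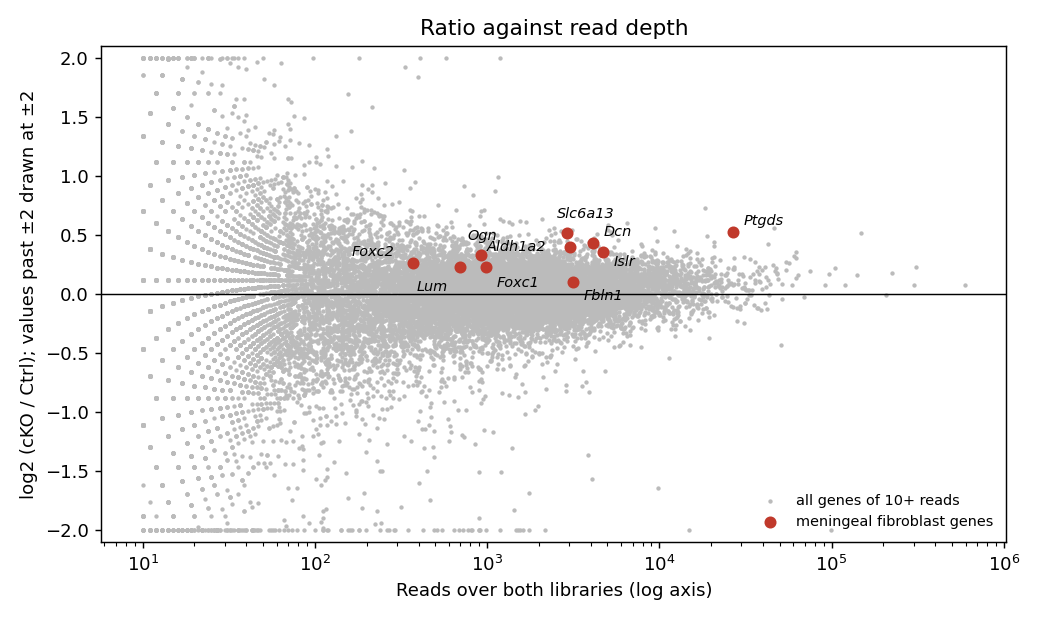
Log2 ratio of cKO over Ctrl against reads over both libraries (log axis) for every gene of 10 or more reads (grey) and the 10 meningeal fibroblast genes (red). Values past ±2 are drawn at ±2. Slc6a13, Dcn, Aldh1a2 and Ptgds lie at the upper edge of the genes of like depth, whereas Lum, Foxc1, Foxc2 and Fbln1 lie inside the cloud.

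All pairs of members were set side by side. Of 45 pairs, 9 had ratio intervals that did not overlap. Fbln1 was the lower gene in 5 of them, against Ptgds, Slc6a13, Aldh1a2, Dcn and Islr. Ptgds was the higher gene in another 3, against Foxc1, Lum and Islr, and Slc6a13 was above Foxc1 in the last. Summed over the 10 genes, 26604 reads in cKO and 21153 in Ctrl made up 0.152% (exact 95% interval 0.150 to 0.154) of cKO gene reads and 0.114% (0.112 to 0.115) of Ctrl gene reads. The ratio of the sums was 0.45 (0.42 to 0.47). Ptgds gave 57.6% of those reads in cKO and 54.5% in Ctrl, and without it the ratio of the sums was 0.35 (0.31 to 0.39).

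A wider list of 40 other leptomeningeal genes leaned less to one side. All 40 were measured, with intervals above 0 for 16, below 0 for 4 and spanning 0 for 20, and a median of 0.08. For this list and those below, the shares over all genes tested were 17.0% above 0 and 15.5% below. Over genes of 500 or more reads they were 25.4% above and 20.0% below. Its most abundant genes were Igf2, a growth factor, at 0.10 (0.07 to 0.13) and the fibrillar collagen gene Col3a1 at 0.17 (0.12 to 0.22). Osr1, a zinc finger transcription factor, was highest at 0.90 (0.58 to 1.22), with 225 reads in cKO and 131 in Ctrl. The Wnt agonist gene Rspo3 was lowest at -0.81 (-1.65 to -0.02), with 21 reads in cKO and 40 in Ctrl. Its solute carrier genes, named after their values were seen, lay on both sides. Slc13a3 stood at 0.71 (0.52 to 0.90) and Slc22a6 at 0.46 (0.30 to 0.63), whereas Slc13a4 stood at -0.49 (-0.65 to -0.33), Slc22a2 at -0.43 (-1.18 to 0.30), Slc47a1 at -0.09 (-0.48 to 0.29) and Slc16a11 at -0.04 (-0.32 to 0.24). The proteoglycan gene Bgn stood at -0.04 (-0.13 to 0.05). Pdgfra, which is also on the oligodendrocyte list described below, stood at -0.05 (-0.13 to 0.03). Mfap4 stood at 0.35 (0.29 to 0.41), and it counts as above 0 on the granule neuron progenitor list too. Without genes that another cell type's list holds, 38 remained, with intervals above 0 for 15 and below 0 for 4, and a median of 0.08. Among the other collagen genes of the wider list, Col1a1 stood at 0.10 (0.04 to 0.17) and Col1a2 at 0.14 (0.08 to 0.20). Col6a1 stood at 0.22 (0.13 to 0.30) and Col5a1 at -0.04 (-0.12 to 0.05). In bulk tissue, more cells of a type and more RNA per cell cannot be told apart.

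The gene families and pathways of the members were mixed. Around Aldh1a2, 20 other retinoic acid genes had a median of 0.00, with intervals above 0 for 2 and below 0 for 4. Cyp26b1, which breaks retinoic acid down, stood at -0.30 (-0.35 to -0.25) and Crabp2, a carrier of retinoic acid to its receptors, at 0.56 (0.26 to 0.86). Crabp1, another carrier, was lowest at -1.61 (-2.32 to -0.95), past 2-fold, with 25 reads in cKO and 83 in Ctrl, and the receptor gene Rxrb stood at -0.03 (-0.13 to 0.08). Around Ptgds, 19 prostaglandin genes had a median of 0.01, with 2 above 0 and 3 below. Hpgd, which inactivates prostaglandins, was lowest at -0.84 (-1.28 to -0.41), and the prostaglandin uptake carrier gene Slco2a1 was the highest with 50 or more reads at 0.27 (0.05 to 0.49). The synthases Ptges3 at 0.16 (0.08 to 0.24) and Ptges2 at 0.17 (-0.00 to 0.33) were the most abundant.

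Slc6a13 lies beside Slc6a12, the betaine and GABA transporter gene, on chromosome 6. Slc6a12 had 217 reads in cKO and 114 in Ctrl, a ratio of 1.05 (0.71 to 1.39) that was past 2-fold higher. Among 14 other transporters of this family it was the only gene past 2-fold higher, and the noradrenaline transporter gene Slc6a2, at -2.80 (-3.76 to -1.96), the only gene past 2-fold lower. The family's median was -0.01, with intervals above 0 for 2 and below 0 for 4, and the abundant GABA transporter gene Slc6a11 stood at 0.03 (-0.04 to 0.09).

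Of 12 other small leucine-rich proteoglycan genes, 2 had intervals above 0 and 2 below, with a median of 0.02. Fmod (fibromodulin) was the highest with 50 or more reads at 0.59 (0.43 to 0.75) and Prelp the lowest at -0.66 (-0.85 to -0.46), with Bgn and Tsku, at 0.10 (-0.02 to 0.23), the most abundant. Of the genes that neighbour Ogn on chromosome 13, Ecm2 had an interval below that of Ogn. Ecm2 stood at -0.62 (-0.93 to -0.31). Omd stood at 0.22 (-0.43 to 0.88), Aspn at -0.14 (-1.08 to 0.77) and Cenpp at 0.34 (-0.01 to 0.69), intervals that include the Ogn ratio. Omd had 43 reads in cKO and 40 in Ctrl, and Aspn 20 in cKO and 24 in Ctrl. Around Fbln1, 20 fibulins and partner proteins of the matrix had a median of -0.12, with intervals above 0 for 2 and below 0 for 7. Efemp1 was highest at 0.46 (0.21 to 0.71) and the fibrillin gene Fbn1 lowest at -0.76 (-0.91 to -0.61), while the abundant Nid1 stood at -0.20 (-0.25 to -0.15) and Fn1 at 0.11 (0.05 to 0.16).

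Of 10 other forkhead genes, Foxl2 had an interval above 0 at 0.51 (0.15 to 0.88) and Foxp1 below 0 at -0.15 (-0.29 to -0.02), and the median was -0.03. Foxq1 and Foxf2, which neighbour Foxc1, stood at -0.30 (-0.68 to 0.06) and 0.04 (-0.22 to 0.30). Foxf1, near Foxc2, stood at 0.37 (-0.21 to 0.96), and Foxo1 at 0.04 (-0.14 to 0.22).

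Some of the 10 genes are also expressed outside the meninges, Ptgds in choroid plexus and oligodendrocytes and Dcn and Lum in perivascular fibroblasts. Choroid plexus markers had intervals below 0 for 14 of 15 measured genes, 12 of them past 2-fold lower in the cKO library, with a median of -3.04 and a sum of 210.0 CPM in cKO against 6130.1 CPM in Ctrl. Ttr had 257 reads in cKO and 99032 in Ctrl, and Enpp2 stood at -1.64 (-1.71 to -1.57), Otx2 at -0.87 (-1.03 to -0.72). No list covered perivascular fibroblasts as such. The mural cell list had a median of -0.14, with intervals above 0 for 1 of 12 genes and below 0 for 3, and sums of 394.1 CPM in cKO and 395.0 CPM in Ctrl. The oligodendrocyte list had a median of -0.04, with 3 of 15 above 0 and 2 below, and sums of 777 CPM in cKO and 752 CPM in Ctrl. Arachnoid barrier genes had a median of -0.06, with 3 of 11 above 0, 3 below 0 and sums of 308 CPM in cKO and 311 CPM in Ctrl. The 3 below 0 were the epithelial keratin genes Krt18 and Krt8, and Crym at -1.05 (-1.47 to -0.64). Krt18 had 2 reads in cKO and 288 in Ctrl, a ratio of -7.05 (-10.10 to -5.19). Krt8 had 3 reads in cKO and 152 in Ctrl, a ratio of -5.54 (-7.84 to -3.97). Which epithelial cells these keratin reads came from was not tested. The barrier genes Cdh1 at 0.47 (0.28 to 0.67) and Cldn11 at 0.26 (0.14 to 0.38) stood higher, and Tjp1 stood at -0.06 (-0.14 to 0.03). Cldn11 is also on the oligodendrocyte list, and it counts among the genes above 0 on both lists. None of these markers was at 0 reads in either library, and their part in the ratios of the 10 genes was not tested.

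**Figure D4:**
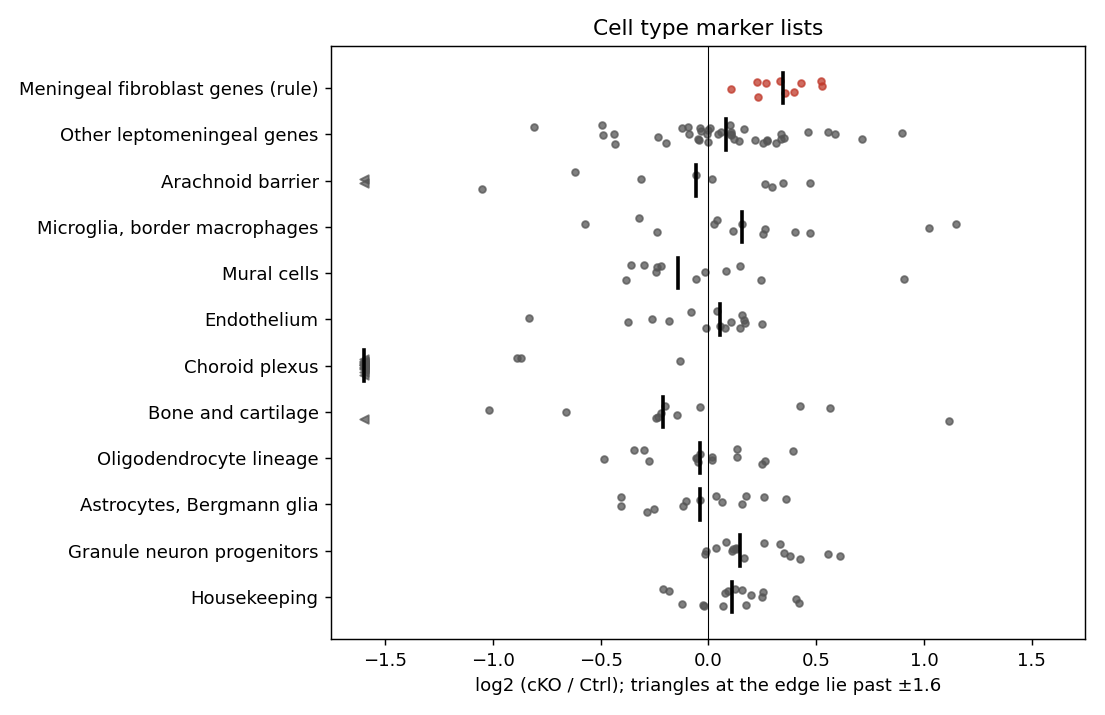
Log2 ratio of cKO over Ctrl for every measured gene of 12 lists, with the median as a black bar. Triangles at the edge lie past ±1.6, and the choroid plexus median of -3.04 is drawn at the edge. All 10 meningeal fibroblast genes (red) lie to the right of 0, while the other leptomeningeal genes lie on both sides.

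The authors' deposited table gives unscaled CPM ratios that lie slightly lower, with a fold of 1.41 for Ptgds, 1.40 for Slc6a13 and 1.05 for Fbln1. In the authors' deposited table the adjusted p ran from 3.46e-171 for Ptgds to 0.259 for Fbln1, from a comparison of these 2 libraries. That table marks 622 genes as significant, the smallest fold among them being 2.00, and marks 0 of the 10 genes. Without that fold limit, the authors' deposited table gives 6 of the 10 genes an adjusted p under 0.05, against 21.5% of all its genes.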

How the data were processed

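RNA was sequenced from dissected cerebellum in Illumina TruSeq libraries, per the labels' protocols. Per the file headers, the authors deposited unnormalized read counts for each gene. The submitters' processing notes list mm9 as the build and, without their roles, Bowtie2 2.2.3, TopHat2 2.0.12 and HTSeq 0.6.0. Strand use and annotation are not given there. The normalized values deposited by the authors were on the CPM scale, equal for 44846 of 44846 values to the count times 1 factor per column (relative tolerance 0.0001), with 0 replaced by 0.5. The authors' fold is the ratio of these values, the authors' log2 column its logarithm, and the deposited p-value columns come from a tool not named in the sources. No other sample columns were present.

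Counts were scaled with TMM in edgeR 4.0.16 (R 4.3.3), with factors of 0.990 for cKO and 1.01 for Ctrl. Of 22423 genes, 18787 passed a minimum of 10 reads summed over the libraries, all 10 members among them. With 1 library per genotype no test was made. A call needed a 2-fold scaled ratio and an exact binomial (Clopper-Pearson) 95% interval excluding 1, and 0 counts were set to a floor of 3 per library (0.173 CPM in cKO, 0.160 CPM in Ctrl). Intervals treat reads as independent molecules, which libraries without molecular identifiers do not ensure. The ratio code was checked on simulated data. Alternatives used other scalings (DESeq2 1.42.0 size factors among them), read minimums, interval levels and fold thresholds. Exon lengths and overlaps came from GENCODE M21 (GRCm38), by Ensembl ID, whereas the notes name mm9. Intervals used scipy 1.17.1 with pandas 2.3.3 and numpy 2.4.6 in Python 3.11.15, and plots used matplotlib 3.10.9.

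The members and the 22 lists beside them were chosen with earlier results of these data known. Named genes were all members, Prdm16 and sex-linked genes, and from each list the highest and lowest ratio among genes of 50 or more reads and the 2 most abundant. Listed neighbours of members were also named. Other names were chosen after their values were seen, and some genes the rule names are not reported here.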

Additional observations from a re-analysis of the deposited data

How the results depend on the processing

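All 10 ratios stayed above 0 under TMM, library totals, DESeq2's size factors, the upper quartile and, added after seeing the data, totals without choroid plexus, sex-linked and mitochondrial genes. The number with an interval above 0 was 7 of 10 with library totals, with DESeq2's size factors and with the added totals (13.7%, 14.7% and 13.4% of all genes tested), 9 with the upper quartile (17.0%) and 6 with a 99% interval (11.9%), and 0 had an interval below 0 under any of these. The ratio of summed reads, 0.45, was 0.42 with library totals, 0.42 with the added totals and 0.35 without Ptgds. Past the fold with an interval excluding 1 stood 0 of the 10 genes at 1.5-fold and 6 at 1.2-fold. The share of all genes past the fold higher was 0.366% at a minimum of 50 reads, 0.633% with 99% intervals, 2.26% at 1.5-fold and 7.19% at 1.2-fold, against 1.21%. The members' median was 0.33 without Ptgds and 0.33 without Islr. Of 105 recomputed values other than list medians, 97 stayed within their counting interval or within 1.5 times the count. Another scaling moved list medians by at most 0.03, which turns the sign of the retinoic acid, prostaglandin, proteoglycan and Schwann cell medians, all close to 0. A minimum of 50 reads gave medians of 0.31 for muscle, 0.17 for Schwann cell, -0.22 for mural, 0.09 for proteoglycan, 0.04 for forkhead and -0.03 for prostaglandin genes. No paired analysis was possible because each genotype has 1 library, and none could be left out for the same reason. For Foxc2, with 373 reads over both libraries, the shift was not detectable at this depth.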

Other observations

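Border macrophages live in the meninges beside the fibroblasts. On a list of 13 microglia and border macrophage genes, 7 intervals were above 0 and 1 was below. The shares over all genes tested were 17.0% above 0 and 15.5% below, and over genes of 500 or more reads 25.4% and 20.0%. The list had a median of 0.15 and sums of 296 CPM in cKO and 275 CPM in Ctrl. Aif1 stood highest at 1.15 (0.40 to 1.94), the microglial receptor gene Cx3cr1 lowest at -0.57 (-0.81 to -0.34), and the abundant C1qc at 0.15 (0.00 to 0.31) and Csf1r at 0.04 (-0.09 to 0.17). Of the genes typical of border macrophages, chosen here after their values were seen, Cd163 stood at 0.47 (0.18 to 0.76), Pf4 at 0.40 (0.13 to 0.67), Mrc1 at 0.25 (0.09 to 0.42) and Lyve1 at 0.03 (-0.17 to 0.22).

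Lists of other tissues and cell types were measured the same way. Their counts stand beside the same shares over all genes tested, 17.0% above 0 and 15.5% below. Bone and cartilage genes had a median of -0.21 over 12 genes, with 1 interval above 0 and 3 below, and Col2a1 stood at -0.20 (-0.31 to -0.09). Skeletal muscle genes had a median of 0.09 over 9 genes (0.31 over those with 50 or more reads) with 2 above 0 and 0 below, and sums of 25.9 CPM in cKO and 23.4 CPM in Ctrl. Schwann cell genes had a median of 0.02 over 8 genes with 1 above 0 and 1 below. Red cell genes had a median of -0.31 over 7 genes with 0 above 0 and 3 below. Endothelial genes had a median of 0.05 over 15 genes with 3 above 0 and 3 below, and Slco1c1 was lowest at -0.83 (-0.98 to -0.68). Astrocyte genes had a median of -0.04 over 13 genes with 5 above 0 and 5 below. Granule neuron progenitor genes had a median of 0.15 over 16 genes with 13 above 0 and 0 below, and housekeeping genes a median of 0.11 over 16 genes with 8 above 0 and 3 below.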
